A study of Mus musculus with 24 samples.

Results

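The 8 arrays of endothelial cells sorted from mouse Shh medulloblastoma, out of 24 arrays in the series, were compared with one another along an endothelial score. The score of an array was the mean log2 value of 5 genes of vascular endothelium: Cdh5 (VE-cadherin of endothelial junctions), Pecam1 (the adhesion molecule CD31), Eng (endoglin, a co-receptor for TGF-beta family ligands), Tie1 (a receptor tyrosine kinase of the angiopoietin system) and Kdr (the main signalling receptor for VEGF-A). Each of the other 22175 genes measured was then asked whether it rose or fell with that score from array to array. The order of the arrays was chosen by the measured values of these 5 genes, so those are given as a description with no test. The genes tested against the score were read from the same hybridisations.

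The Shh tumours came from Ptch+/-; Ink4c-/- mice, Ink4c being the cyclin-dependent kinase inhibitor gene Cdkn2c. The other arrays were 8 of endothelial cells from Wnt medulloblastoma, in mice with Blbp-Cre and the alleles Ctnnb1 +/Exon3 flox, Pik3ca +/flox and Trp53 flox/flox, and 8 from the hindbrain of wild-type adults. All 3 groups were on a mixed strain background. In the Shh model the alleles are germline and thus also carried by the vessels and by every other cell of the animal. In the Wnt model recombination is driven by the Blbp promoter, which is active in neural progenitors and radial glia. Tissue had been dissociated with papain and passed through a 30 micron filter, and cells carrying Cd105 or Cd144 were captured with PE-coupled antibodies and magnetic beads. Cd105 is the product of Eng and Cd144 that of Cdh5, so 2 of the 5 score genes encode the antigens of the sort. The labels call the arrays biological replicates and give no sex, pooling or age other than adult for the hindbrain group. The p-values therefore measure the spread between these samples.

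Brain endothelial cells form the blood-brain barrier: tight junctions seal the vessel wall, transporters carry nutrients in and drugs out, and Wnt/beta-catenin signalling in the endothelium maintains both. Shh medulloblastoma arises from granule neuron precursors of the cerebellum, which express Atoh1 and divide in response to Sonic hedgehog. Loss of the receptor Ptch1 releases Smoothened, and the Gli transcription factors then switch on target genes such as Gli1, Ptch1 and Hhip. RNA from tumour cells, macrophages or pericytes that come through a bead sort is measured together with that of the endothelium.

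The endothelial score of the Shh arrays ran from 11.65 in replicate 7 to 12.03 in replicate 5, with a mean of 11.84 ± 0.153 (SD, n = 8). That span is 0.38 log2, or 1.30-fold. From the lowest array upwards the order was replicates 7, 1, 2, 8, 4, 3, 6 and 5. The values left a gap of 0.164 log2 between replicate 8 (11.77) and replicate 4 (11.94), larger than the spread of the 4 arrays below it (0.125) or of the 4 above it (0.0916). Each of the 5 genes followed the mean of the other 4, with Pearson r from 0.75 for Kdr to 0.947 for Pecam1 over the 8 arrays. Kdr ranged from 11.78 to 12.32, Tie1 from 10.15 to 10.78 and Cdh5, the narrowest apart from Pecam1, from 12.63 to 13.03. The hindbrain arrays covered nearly the same interval (11.60 to 11.97), while the Wnt arrays were lower and wider (10.44 to 11.56).

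**Figure D1:**
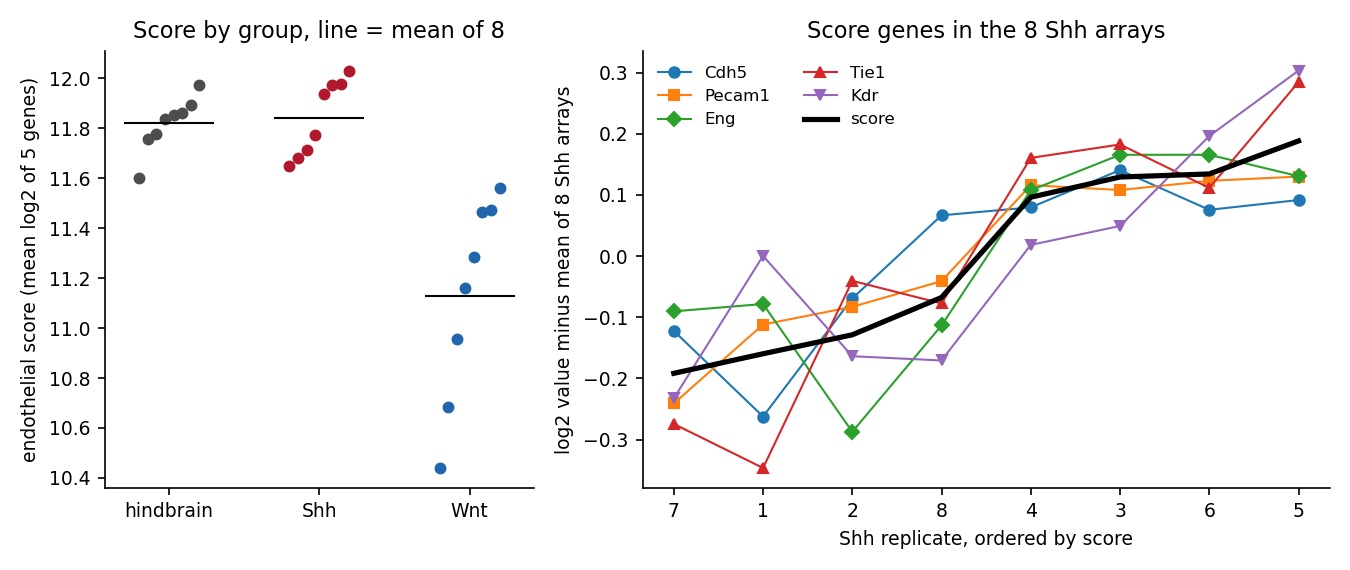
Left, the endothelial score (mean log2 value of 5 genes) of each array in the hindbrain, Shh and Wnt groups, with a line at the mean of 8 arrays. Right, the 5 score genes as log2 value minus their mean over the 8 Shh arrays, ordered by score; all 5 are lower in replicates 7 and 2 than in replicates 4, 3, 6 and 5, and the score (black) steps up between replicates 8 and 4.

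Arrays of the Shh group correlated with each other at r from 0.970 to 0.987 over all genes. The first principal component of the 8 arrays held 30.8% of the variance and followed the score (r = 0.914), while the 2nd (19.6%) and 3rd (15%) did not (r = 0.094 and 0.227). Technical measures moved with the score. The mean of the 92 ERCC control probe sets, which match synthetic RNAs that mouse cells do not make, ran from 3.86 to 4.03 log2 and correlated with the score at r = 0.907. The mean of the hybridisation control probe sets ran from 8.43 in replicate 1 to 8.74 in replicate 6 (r = 0.696). No refit was made with that mean. The median of all probe sets moved less closely with the score (r = 0.499, range 6.09 to 6.17). Genes at or below 5.24 log2, the 95th percentile of the ERCC means, had positive slopes in 67.4% of 5921 cases, against 48.2% of genes between 7 and 9 log2. The part of this background in the slopes was examined by 2 refits described with the results.

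With limma, 34 genes rose with the score (0.153% of 22175) and 67 fell (0.302%) at a Benjamini-Hochberg adjusted p under 0.05. Slopes are given as the change in log2 value for each SD of the score, which is 0.153 log2, with the standard error after the sign ±. The genes that rose had slopes from 0.26 to 0.61 with a median of 0.35. Those that fell had steeper ones, from -0.33 to -1.13 with a median of -0.60. Over all genes the median slope was 0.015, with 12262 positive and 9913 negative. Unadjusted p-values under 0.05 numbered 2094 with a positive slope (9.44%) and 1796 with a negative slope (8.1%). In a bulk array, fewer cells of a type and less RNA per cell cannot be told apart, and this holds for every gene below.

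The number of calls rested on single arrays. Leaving out replicate 1 gave 8 rising and 56 falling calls, of which 4 and 40 were among the 34 and 67. Leaving out replicate 2 gave 0 and 2 (1 of the 2 among the 67), and leaving out replicate 3 gave 1 and 17 (1 and 11 among them). Without any 1 of replicates 4 to 8, limma called 0 genes in either direction at the adjusted threshold, with 3326 to 3699 genes at an unadjusted p under 0.05. In every one of these 8 fits all 34 rising and all 67 falling genes kept the sign of their slope and an unadjusted p under 0.05. The genes were chosen over all 8 arrays and each fit reuses all but 1 of them, so this outcome was favoured in advance. With the ERCC mean of each array as a covariate, limma called 0 genes (1051 at an unadjusted p under 0.05). There too all 34 and all 67 kept their sign, and 13 and 46 of them kept an unadjusted p under 0.05. Subtracting the ERCC mean from each array also left 0 calls (2955 at an unadjusted p under 0.05) and turned the split of all genes to 7666 positive and 14509 negative slopes.

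Of the 67 genes that fell, 5 belong to the lists used here: Atoh1, Olig2, Gli2, Hhip and Boc. Atoh1, the bHLH factor that specifies granule neuron precursors, measured 9.34, 9.39, 7.24, 7.71, 7.78, 8.23, 10.22 and 8.87 log2 in replicates 1 to 8. It was highest in replicate 7, the array with the lowest score, and all 4 arrays below the gap were above all 4 arrays beyond it. Choosing genes by their fit to a score with such a gap favours this split, here and for the called genes below. The slope of Atoh1 was -0.95 ± 0.131 (limma adjusted p = 0.0368), with r = -0.929 (exact permutation p = 0.00288, adjusted 0.0141 over 90 genes) and rho = -0.786 (exact p = 0.0279, adjusted 0.0559). Without replicates 1 and 7, the arrays farthest from the median score, r was -0.881. Nearly all of the 90 genes were picked by their fit to the score in these arrays. The adjusted exact p-values here and below therefore leave out the search over 22175 genes and are a description. Hindbrain arrays held Atoh1 at 5.43 to 6.03 and Wnt arrays at 5.35 to 5.82, so that even the lowest Shh array was above both.

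Olig2, a bHLH factor of oligodendrocyte precursors that Shh-driven medulloblastoma cells also express, had the steepest slope of the named genes. It measured 9.78, 9.75, 7.37, 7.13, 6.93, 8.09, 9.56 and 8.67 log2 in replicates 1 to 8. The slope was -1.13 ± 0.137 (limma adjusted p = 0.0368), with r = -0.944 (exact permutation p = 0.00317, adjusted 0.0141) and rho = -0.833 (exact p = 0.0154, adjusted 0.0419). The lowest value, in replicate 5 with the highest score, was next to the top of the hindbrain range (6.06 to 6.93). Its neighbour in function Olig1 had a slope of -0.90 that missed the threshold (adjusted p = 0.058), and the myelin genes Mbp, Cnp and Mog had slopes of 0.01, 0.05 and 0.20. Of the 16 oligodendrocyte lineage markers 9 had negative slopes, 6 of them with an unadjusted p under 0.05 (5 to 8 with 1 array left out), and 7 had positive slopes, 1 of them with an unadjusted p under 0.05.

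Of the hedgehog pathway genes Hhip, Gli2 and Boc fell as well. Hhip, the secreted inhibitor that Gli proteins induce, measured 8.0, 7.90, 6.53, 6.44, 6.49, 7.03, 8.27 and 7.19 log2 in replicates 1 to 8, a slope of -0.69 ± 0.095 (adjusted p = 0.0368). Gli2, the main activating transcription factor, measured 8.14, 8.43, 7.06, 7.41, 7.17, 7.24, 9.19 and 8.18, a slope of -0.71 ± 0.095 (adjusted p = 0.0368). The 4 arrays with low scores were above the 4 with high scores for both genes. Boc, a co-receptor for Sonic hedgehog, fell by 0.67 per SD of the score, from 11.03 in replicate 7 to 8.91 in replicate 3. Ptch1, which carries the germline mutation, measured 9.41, 9.56, 9.12, 8.81, 9.0, 8.94, 10.14 and 9.12, and its slope of -0.35 ± 0.091 did not pass (adjusted p = 0.102). Gli1, the target used most often as a readout of the pathway, had a slope of -0.75 ± 0.163 (adjusted p = 0.0747) and was highest in replicates 7 (9.39) and 2 (9.0). Cdkn2c, the other germline-mutant gene of the model, lay between 7.37 and 8.20 with a slope of -0.17 (adjusted p = 0.323). Of the 13 pathway and model genes measured, 3 fell by the adjusted test, 0 rose, and 10 had negative slopes, with a median r of -0.78 against 0.084 over all genes. An unadjusted p under 0.05 in limma was found for 8 negative slopes and 1 positive slope. In Wnt arrays all 13 had negative slopes (median r -0.41). The list mean was higher in Wnt arrays (8.57 to 9.42) than in most Shh arrays (7.65 to 8.64). In hindbrain arrays it lay between 7.135 and 7.68.

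The wider list of granule neuron precursor and tumour cell genes had 24 negative slopes among its 25 members. Atoh1, Gli2 and Boc were the 3 that fell by the adjusted test, and 17 of the 25 had a negative slope with an unadjusted p under 0.05, against 8.1% of all genes. Barhl1, a homeobox gene of granule cells, and Mycn, a target of hedgehog signalling that drives precursor division, had slopes of -0.69 (adjusted p = 0.053) and -0.52 (adjusted p = 0.0555). Zic2 was the single exception, with a slope of 0.11. The mean of the list ran from 7.19 in replicate 3 to 8.87 in replicate 7, a 3.20-fold range, while it lay between 6.45 and 6.77 in hindbrain and between 6.81 and 7.11 in Wnt arrays. Every Shh array was thus above every array of the other groups for the mean of this list. This did not hold for each member, as the values of Gli2 and Boc in Wnt arrays, given below, show. With the ERCC covariate 19 of the 25 slopes were negative and 6 had an unadjusted p under 0.05.

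The other genes that fell are in none of the lists, and no theme was tested for them. Those with the largest slopes included Gng3 (a G protein gamma subunit of neurons, slope -0.93), Sstr2 (a somatostatin receptor, -0.83), Syt13 (an atypical synaptotagmin, -0.83), Prmt8 (a brain arginine methyltransferase, -0.96), Lrrn1 (-0.82), Amer2 (-1.0) and Hectd2 (-0.97). Vcan, which encodes the matrix proteoglycan versican, fell by 0.82 per SD of the score. Further genes that passed, taken up after their values were seen, were the neural transcription factors Ebf2 (-0.67), Ebf3 (-0.57) and Pou3f2 (-0.74), the neurotrophin receptor Ntrk3 (-0.76), the guidance receptors Robo1 (-0.55), Dscam (-0.48), Epha3 (-0.74) and Plxnc1 (-0.68), the glutamate receptor subunit Gria3 (-0.69) and the growth factor signalling genes Irs1 (-0.68), Etv5 (-0.53) and Fzd7 (-0.60). Markers of mature neurons were mixed. Snap25 and Stmn3 had slopes of -0.58 and -0.69 that did not pass, whereas the neurofilament genes Nefl, Nefm and Nefh lay between -0.01 and 0.03 and the glutamate transporter Slc17a7 at 0.21.

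Cell cycle genes leaned the same way without a single adjusted call. All 31 measured had negative slopes, 27 of them with an unadjusted p under 0.05, and their median slope was -0.38. Slopes on the score of the group were also negative for 30 of the 31 in Wnt arrays and 21 in hindbrain arrays. Rrm2, the ribonucleotide reductase subunit of S phase, and Ube2c, a mitotic ubiquitin-conjugating enzyme, came closest, at -0.57 (adjusted p = 0.0833) and -0.51 (adjusted p = 0.0795). Mki67, the proliferation antigen, spanned 9.32 to 10.94 log2 with a slope of -0.40 (adjusted p = 0.215). The list mean was highest in replicate 7 (9.44) and lowest in replicate 3 (8.04), all above the hindbrain arrays (6.68 to 7.06) and overlapping the Wnt arrays (7.70 to 9.24). Without replicate 7, 15 of the 31 still had an unadjusted p under 0.05, the fewest of any array left out. With the ERCC covariate 29 stayed negative and 0 had an unadjusted p under 0.05.

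**Figure D2:**
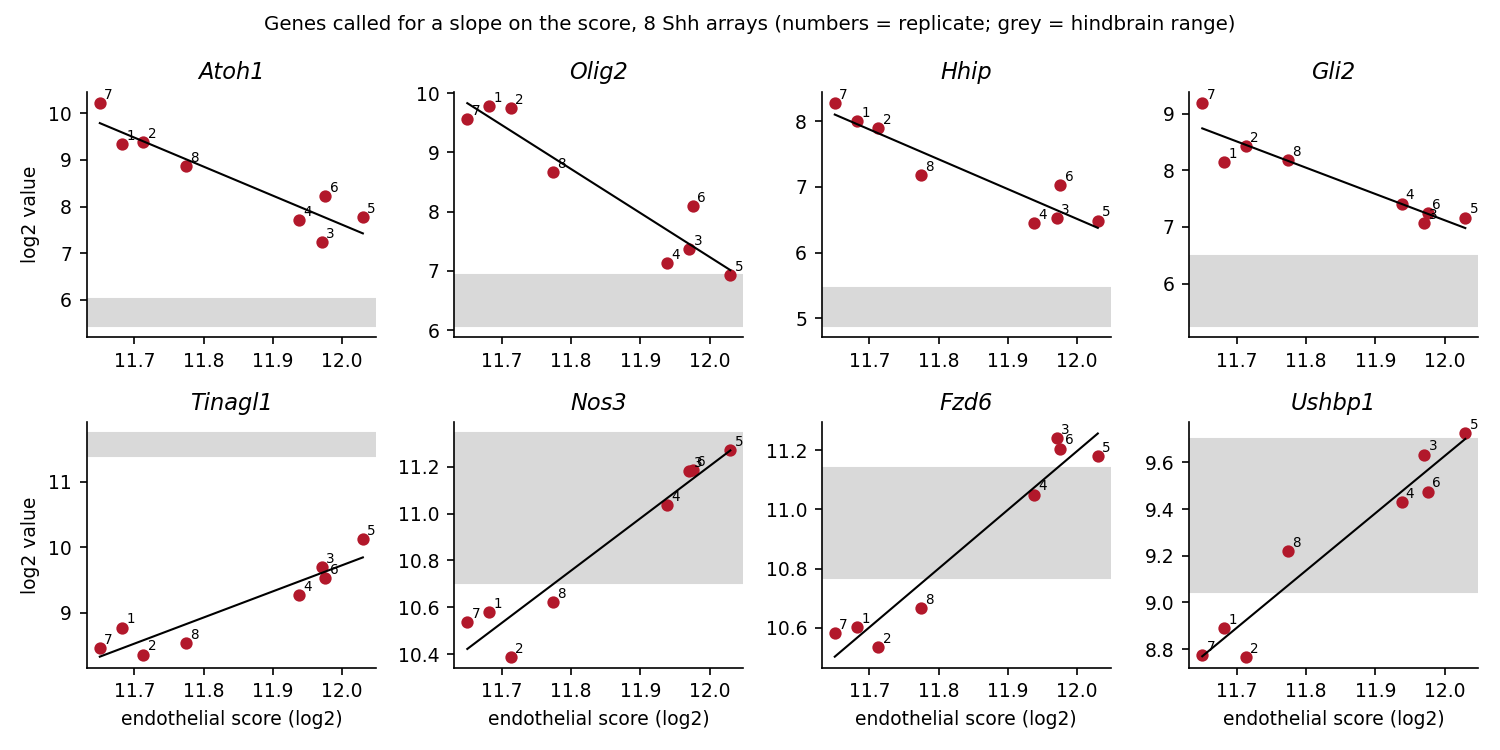
Log2 value against endothelial score for 4 genes that fell and 4 that rose across the 8 Shh arrays (points numbered by replicate, line = least squares fit, grey band = range of the 8 hindbrain arrays). Atoh1, Olig2, Hhip and Gli2 are higher in replicates 7, 1, 2 and 8 than in replicates 4, 3, 6 and 5, and Tinagl1, Nos3, Fzd6 and Ushbp1 are lower in them.

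The genes that rose included vascular genes that the score did not hold. Nos3, the endothelial nitric oxide synthase, measured 10.58, 10.39, 11.18, 11.04, 11.27, 11.19, 10.54 and 10.62 log2 in replicates 1 to 8. The arrays fell into the same 2 sets of 4 with no overlap, which choosing genes by the score favours. The slope was 0.34 ± 0.051 (limma adjusted p = 0.042), with r = 0.965 (exact permutation p = 0.00308, adjusted 0.0141 over 90 genes), rho = 0.929 (exact p = 0.00223, adjusted 0.0335) and r = 0.996 without replicates 1 and 7. Ushbp1, a gene expressed in endothelium, went from 8.77 in replicates 2 and 7 to 9.72 in replicate 5 and had a slope of 0.37 ± 0.052 (adjusted p = 0.0368). Icam2, the constitutive endothelial ligand of leukocyte integrins, had a slope of 0.30 ± 0.049 (adjusted p = 0.0463) between 7.74 and 8.58. Unc13b, a priming factor of regulated exocytosis, measured 9.46, 9.25, 10.48, 10.01, 10.28, 10.26, 9.30 and 9.86, a slope of 0.45 ± 0.068.

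Tinagl1, a secreted basement membrane protein, had the largest slope of the genes that rose. It measured 8.77, 8.36, 9.69, 9.27, 10.12, 9.53, 8.46 and 8.54 log2 in replicates 1 to 8, a slope of 0.61 ± 0.087 (limma adjusted p = 0.0393), with r = 0.933 (exact permutation p = 0.00375, adjusted 0.0141). All Shh arrays remained below the hindbrain arrays, which lay between 11.40 and 11.74. Of the 17 basement membrane genes 10 had positive slopes, 5 with an unadjusted p under 0.05, and 7 negative ones, 2 with an unadjusted p under 0.05. Agrn, the proteoglycan agrin, had a slope of 0.23 (adjusted p = 0.0552), while the collagen IV chains Col4a1 and Col4a2 had slopes of 0.07 and 0.08 and Nid1 one of -0.01. Fzd6, a frizzled receptor, measured 10.60, 10.54, 11.24, 11.05, 11.18, 11.21, 10.58 and 10.67, a slope of 0.30 ± 0.048 (adjusted p = 0.0463). Mx2, an interferon-induced GTPase, also rose (slope 0.44 ± 0.076, limma adjusted p = 0.0493). Its values of 5.06 to 6.29 lay near the ERCC bound of 5.24, where background moved with the score. Rcan2, a calcineurin regulator (0.36), and Csgalnact1, an enzyme of chondroitin sulfate synthesis (0.39), rose as well. So did Rhobtb1 (0.37), Bend5 (0.40) and Kcp (0.47). Foxl2os (0.50) and Foxl2 (0.35) are overlapping antisense partners whose signals the table does not let one separate, so the pair counts as 1 uncertain locus.

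The single microRNA gene among the genes that rose or fell, of 484 measured genes named as microRNAs, was Mirlet7e, picked out after its values were seen. The let-7 family represses growth genes through its seed, bases 2 to 8 from the 5' end, shown in capitals in the RefSeq sequence of the mature 5p strand (GRCm38.p6, chr17:17830366-17830387, plus strand, 22 bases).
mmu-let-7e-5p: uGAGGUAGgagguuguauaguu
Its probe set measured 6.13, 6.0, 6.63, 6.45, 6.77, 6.44, 5.85 and 6.11 log2 in replicates 1 to 8, a slope of 0.31 ± 0.052 (adjusted p = 0.0463). The values are low on the array, and the probe set reports RNA of the microRNA gene, not the mature strand printed here.

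As a list, the 27 endothelial markers outside the score all had positive slopes, and 20 had an unadjusted p under 0.05 against 9.44% of all genes. Nos3, Ushbp1 and Icam2 were the 3 that rose by the adjusted test. Tek, the angiopoietin receptor, ran from 10.08 to 11.49 with a slope of 0.41 (adjusted p = 0.0818), and Cldn5, the chief claudin of brain endothelium, from 11.70 to 12.39 with a slope of 0.22 (adjusted p = 0.0833). Emcn (0.05), Ecscr (0.06), Cd34 (0.07) and Cd93 (0.07) were nearly flat. The list mean was not ordered exactly as the score and ran from 10.51 in replicate 7 to 11.11 in replicate 3. With the ERCC covariate 26 slopes of 27 stayed positive, 3 of them at an unadjusted p under 0.05. Fitted with a separate mean for each side of the gap, 21 of the 27 were positive.

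Barrier genes leaned with the score. Of 19 barrier transcription factors and Wnt-response genes all had positive slopes, 14 with an unadjusted p under 0.05, and Fzd6 alone rose by the adjusted test. Of the others Tspan12, a co-receptor of the Norrin and Frizzled-4 pathway, came closest (0.23, adjusted p = 0.0552), then Foxq1 (0.35) and the Wnt feedback gene Axin2 (0.33), each with an adjusted p of 0.058. Lef1, the nuclear partner of beta-catenin, had a slope of 0.30 (adjusted p = 0.0833). Of 22 barrier transporters 21 had positive slopes, 14 with an unadjusted p under 0.05, and 0 passed the adjusted test in limma. The drug efflux pump Abcb1a had the widest span of those described here, 10.62 to 12.25 with a slope of 0.45 (adjusted p = 0.0833). The glucose transporter Slc2a1 (12.95 to 13.50, slope 0.14) and the lipid transporter Mfsd2a (12.08 to 12.68, slope 0.20) moved less. Of 14 junction genes outside the score 13 had positive slopes, with Ocln at 0.37 and Tjp1 at 0.27.

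The barrier lists carried their slopes across the gap more than within its 2 sides. With a separate mean for each side, 8 of the 22 transporters and 12 of the 19 transcription factor and Wnt-response genes had positive slopes. The transporter list was lowest in replicate 2 (mean 10.86), not in the array with the lowest score, and highest in replicate 6 (11.66). The same replicate 2 had the highest means for tip cell genes (10.68) and for fenestrated and peripheral vessel genes (9.0), which do not belong to the resting barrier. Of 17 tip cell genes 10 had negative slopes, and 8 without replicate 2. Of 17 fenestrated genes 14 had negative slopes, but 10 without replicate 2 or 5 and 7 without replicate 6. The median r of the lists was -0.10 and -0.17, and in each list 1 gene with a positive and 1 with a negative slope had an unadjusted p under 0.05. Plvap, the diaphragm protein of fenestrae, measured 6.99, 8.37, 7.96, 8.78, 6.49, 5.98, 7.62 and 6.57 log2 in replicates 1 to 8 (r = -0.191). Kcne3, a tip cell potassium channel subunit, stood at 9.20 in replicate 2 and between 5.82 and 7.43 elsewhere.

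Arterial and venous genes were mostly positive without adjusted calls, 14 of 17 and 11 of 13, against 12262 of 22175 over all genes. With 1 array left out the arterial count fell to as low as 11. Positive slopes with an unadjusted p under 0.05 numbered 3 arterial and 2 venous, against 9.44% of all genes. A negative slope with such a p was found for 1 arterial gene. The arterial factor Sox17 had a slope of 0.33, the vasoconstrictor gene Edn1 0.64 and the venous receptor Ephb4 0.33 (adjusted p = 0.0584). Dll4 (0.09), Hey1 (0.02) and Nr2f2 (0.13) were close to flat. Among BMP and TGF-beta genes 12 of 15 were positive and 7 had an unadjusted p under 0.05 (3 without replicate 6 or 7), including the BMP9 receptor Acvrl1 (0.25) and the inhibitory Smad6 (0.36). Of the 13 Notch genes 10 were positive, led by the ligand Jag2 (0.34, adjusted p = 0.0596) and Notch1 (0.20). Klf2, the shear-responsive factor upstream of Nos3, had a slope of 0.35 (adjusted p = 0.0846), although the immediate early and stress list to which it belongs was mixed (23 of 28 positive, and 15 without replicate 7).

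**Figure D3:**
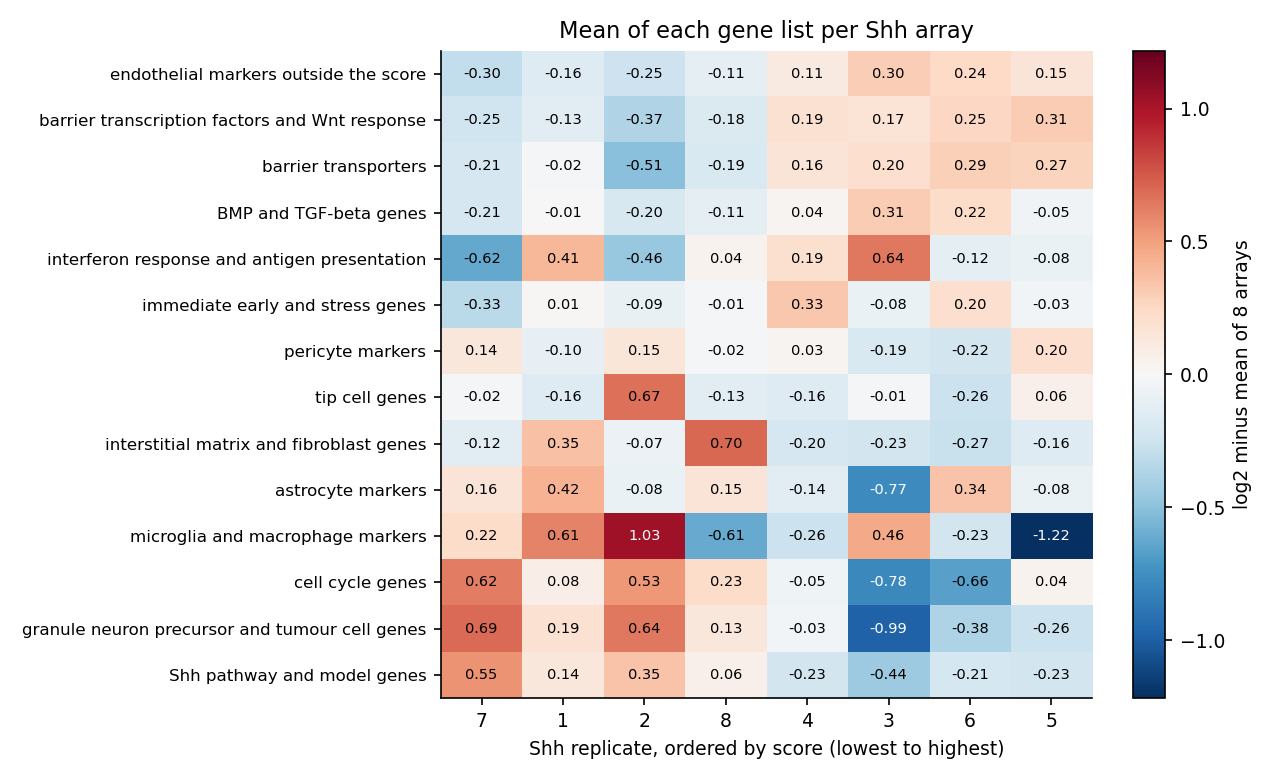
Mean log2 value of 14 gene lists in each Shh array, as the difference from the mean of the 8 arrays, with arrays ordered by score. Endothelial and barrier lists turn from negative to positive between replicates 8 and 4; tumour cell, Shh pathway and cell cycle lists are highest in replicate 7, whereas macrophage, interstitial matrix and interferon lists peak in replicates 2, 8 and 3.

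Macrophage genes varied most of the cell type lists and followed the score loosely. The mean of 26 microglia and macrophage markers ran from 7.75 in replicate 5 to 9.99 in replicate 2, a 4.75-fold range, with 24 negative slopes, a median r of -0.55 and 0 adjusted calls in limma (7 at an unadjusted p under 0.05, all negative). Fcer1g, the Fc receptor signalling chain, spanned 9.36 to 12.19 (slope -0.59, adjusted p = 0.233) and C1qa, a complement component made by microglia, 7.91 to 11.05 (slope -0.58, adjusted p = 0.329). The number at an unadjusted p under 0.05 was 0 without replicate 2 or without replicate 5, and 20 without replicate 3. Replicate 3 combined a high score with high macrophage markers, and replicate 8 a low score with low ones. The hindbrain arrays had higher means (9.82 to 10.79) than 7 of the 8 Shh arrays, and their median r with the hindbrain score was -0.67.

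Mural genes had slopes of both signs. Pericyte markers had 6 positive and 8 negative slopes, with means between 9.95 and 10.37, the narrowest of the cell type lists shown in the map of list means. Rgs5 (12.78 to 13.11) and Pdgfrb (11.70 to 12.05), the receptor by which pericytes are recruited, had slopes of 0.02 and -0.04. Interstitial matrix genes leaned against the score, with 19 negative slopes of 21 (3 with an unadjusted p under 0.05) and a median r of -0.41, but had 13 positive slopes with the ERCC covariate and 18 with a separate mean for each side of the gap. Astrocyte markers had 11 negative slopes of 16. Lymphocyte and neutrophil markers were at or near background, with 10 of 17 above the ERCC bound, and red cell and platelet markers were 3 and 3. Oxidative phosphorylation genes (17 of 20 negative) and ribosomal protein genes (16 of 18 negative) had negative slopes with a median r of -0.29 and -0.34, and 17 and 13 of them were positive with the ERCC covariate. Of the 11 genes commonly used as references, 10 had negative slopes, among them Gapdh at -0.23 (adjusted p = 0.0813).

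Many variable genes were independent of the score in the sense of a small r, though 8 arrays cannot show that a relation is absent. An r between -0.3 and 0.3 was found for 8127 genes (36.6%), and the score carried 27.7% of the total variance of the 8 arrays. Of the 128 genes with a mean above the ERCC bound and an SD of at least 1 log2, 80 had r under -0.3, 10 had r over 0.3 and 38 lay between. The largest SDs belonged to sex chromosome genes. Xist, the RNA of the inactive X chromosome, measured 12.24, 12.62, 12.60, 12.67, 5.36, 12.38, 5.55 and 5.15 log2 in replicates 1 to 8. The Y-linked Eif2s3y measured 5.01, 4.36, 4.74, 5.14, 8.99, 4.38, 8.74 and 9.18, the mirror image of Xist, and Uty and Kdm5d split the arrays in the same way. Replicates 5, 7 and 8, with high Y-linked values, included the highest and the lowest score. With Xist as a covariate 12 genes rose and 57 fell.

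Several of the other independent genes with the largest SDs encode immune proteins. Cd5l, a secreted macrophage protein, was near 9.8 in replicates 2 (9.79) and 3 (9.80) and between 5.11 and 6.95 in the others. Cxcl9, an interferon-gamma-induced chemokine, measured 11.61, 7.10, 11.28, 10.64, 7.88, 8.59, 8.10 and 9.51, against 6.49 to 7.50 in hindbrain. Ccl17, a chemokine of dendritic cells, reached 10.55 in replicate 1 and 8.93 in replicate 4, and lay between 5.40 and 6.63 in the rest. Replicate 1 was thus high for Cxcl9 and Ccl17 but not for Cd5l, and replicate 3 for Cxcl9 and Cd5l but not for Ccl17. Cxcl13, the B cell chemokine, was highest in replicates 3 (9.58), 1 (9.09) and 8 (8.17). Glycam1, a mucin-like ligand of L-selectin known from high endothelial venules, divided them as Cxcl13 did, with 10.23, 10.12 and 10.16 in replicates 1, 3 and 8 and 6.37 to 7.46 in the others, all above the hindbrain range of 5.25 to 5.97. A2m, the protease inhibitor alpha-2-macroglobulin, was 10.91 in replicate 4 and 8.89 in replicate 8, between 6.37 and 7.70 in the others, and between 13.27 and 13.64 in Wnt arrays.

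**Figure D4:**
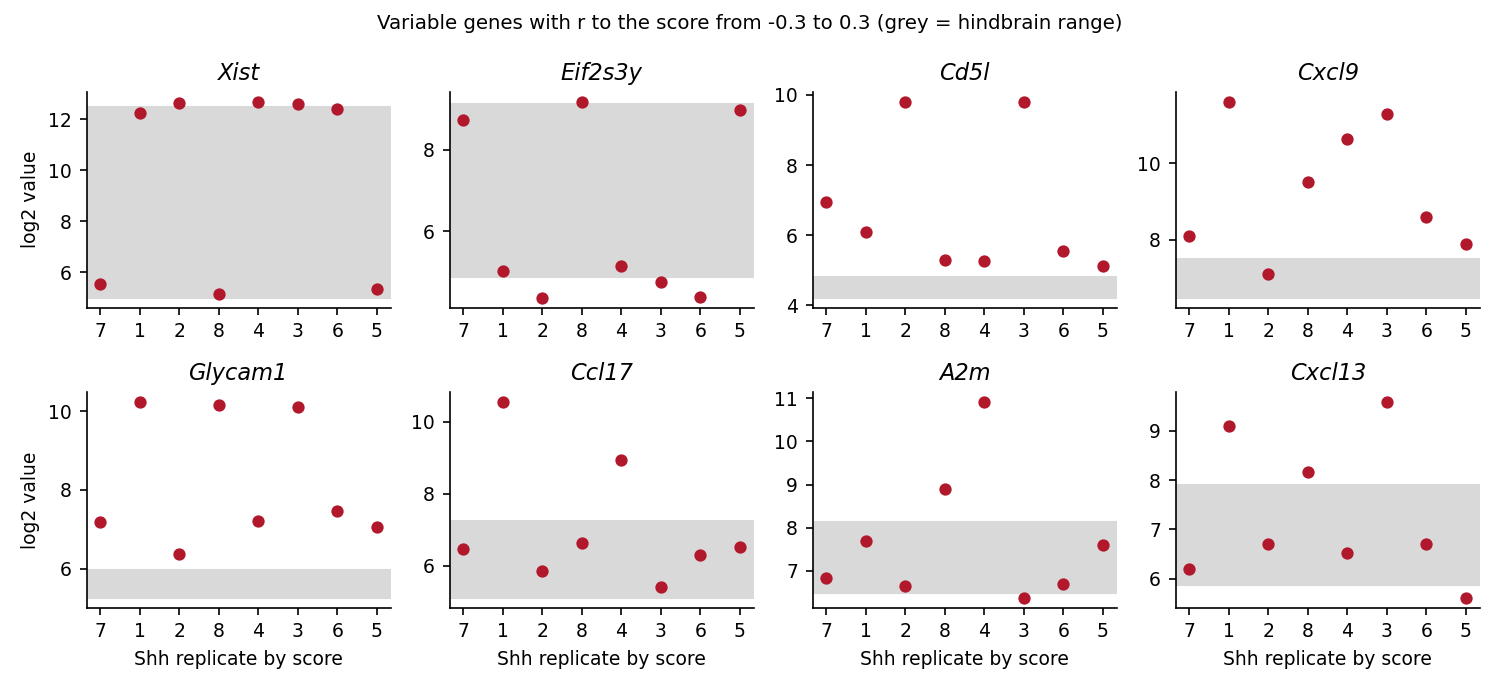
Log2 values of 8 genes with an SD of at least 1 log2 and an r with the score between -0.3 and 0.3, in the 8 Shh arrays ordered by score (grey band = range of the 8 hindbrain arrays). Xist and Eif2s3y mirror each other, while Cd5l is high in replicates 2 and 3, Glycam1 and Cxcl13 in 1, 3 and 8, and Ccl17 in 1 and 4.

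The arrays also differed in ways that their order by score did not show. Replicate 7, with the lowest score, had the highest tumour cell, cell cycle and Shh pathway means and the lowest interferon (7.60) and immediate early (9.77) means. Replicate 2, the third lowest, was highest for macrophage, tip cell, fenestrated and hypoxia genes. Replicate 1 was highest for inflammatory (9.48) and astrocyte (9.20) genes. Replicate 8, just below the gap, had the highest interstitial matrix mean (9.62). On the other side of the gap, replicate 3 had the highest interferon mean (8.86) and the lowest tumour cell, cell cycle and astrocyte means. Replicate 4 was highest for the immediate early list (10.43) and for the heat shock gene Hspa1b (11.12, with replicate 5 close to it and the others from 6.92 to 9.33). Replicate 6 was lowest for tip cell (9.75), fenestrated (7.93), pericyte (9.95) and interstitial matrix (8.64) genes. Replicate 5, with the highest score, had the lowest macrophage mean and the highest value of Ttr, the transthyretin gene of choroid plexus, at 11.32 against 5.76 to 9.70 in the others.

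The Wnt and hindbrain arrays, which had no part in choosing these genes, were scored and fitted in the same way. In the Wnt arrays 73 genes rose (0.329%) and 7 fell (0.0316%) with their own score, and in the hindbrain arrays 316 rose (1.43%) and 333 fell (1.5%). Of the 34 genes that rose in Shh arrays, 28 had positive slopes in Wnt arrays (82.4%, against 48.3% of all genes) and 26 in hindbrain arrays (76.5%, against 52.5%). Of the 34, 13 (38.2%) had a positive slope at an unadjusted p under 0.05 in each of the other groups, against 7.34% of all genes in Wnt and 13.2% in hindbrain. Nos3 was among the steadiest, with r = 0.95 in Wnt and 0.89 in hindbrain, while Fzd6 followed the score in hindbrain (0.87) but not in Wnt (0.25). The 67 genes that fell carried over less: 44 had negative slopes in Wnt (65.7%, against 51.7%) and 38 in hindbrain (56.7%, against 47.5%), and 13 and 7 had a negative slope at an unadjusted p under 0.05 (19.4% against 6.65%, and 10.4% against 9.24%).

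The difference in slope between groups was tested in a fit of all 24 arrays, per log2 unit of the score. Slopes were higher in Shh than in Wnt arrays for 169 genes (0.762%) and lower for 256 (1.15%), and against hindbrain higher for 152 (0.685%) and lower for 209 (0.943%). Of the 67 genes that fell with the score in Shh arrays 52 had a slope that differed from that in Wnt arrays, against 14 of the 34 that rose. Both counts reuse the Shh arrays by which the genes were chosen and are given as a description. The slope in Shh minus that in Wnt arrays was -6.44 for Atoh1 (adjusted p = 6.59e-05), -7.45 for Olig2 (adjusted p = 5.34e-05), -4.29 for Gli2 (adjusted p = 0.00638) and -4.05 for Boc (adjusted p = 0.00252). Atoh1 and Olig2 were at 5.35 to 6.06 throughout the Wnt arrays and had little room to vary there. Gli2 (8.56 to 9.07) and Boc (11.12 to 12.02) were well above that level in Wnt arrays. The fit shares 1 estimate of the spread per gene over the 24 arrays. For Atoh1 the SD was 1.02 in Shh, 0.16 in Wnt and 0.22 in hindbrain arrays. The p-values of such differences can therefore be too small for the spread of the Shh arrays, which also chose these genes.

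The gene lists were also followed in each group. Endothelial markers outside the score had a median r of 0.80 in Shh, 0.92 in Wnt and 0.77 in hindbrain arrays. Barrier transcription factors and Wnt-response genes had 0.81 in Shh and 0.74 in hindbrain but -0.27 in Wnt arrays, and 3 of the 19 had a slope higher in Shh than in Wnt by the adjusted test. Tumour cell genes had -0.74 in Shh, 0.23 in Wnt and 0.14 in hindbrain, and 9 of the 25 had a slope lower in Shh than in Wnt. Shh pathway and model genes had -0.78 in Shh, -0.41 in Wnt and 0.45 in hindbrain. Of these 13 genes 2 had a slope lower in Shh than in Wnt. Pericyte and tip cell genes, flat in Shh arrays (-0.15 and -0.10), had a median r of 0.78 and 0.67 in Wnt arrays. Macrophage markers were negative in all 3 groups (-0.55, -0.59 and -0.67). Cell cycle genes were too, at -0.73 in Shh, -0.38 in Wnt and -0.21 in hindbrain arrays. Of the 31 cell cycle genes 0 had a slope that differed between Shh and Wnt by the adjusted test.

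**Figure D5:**
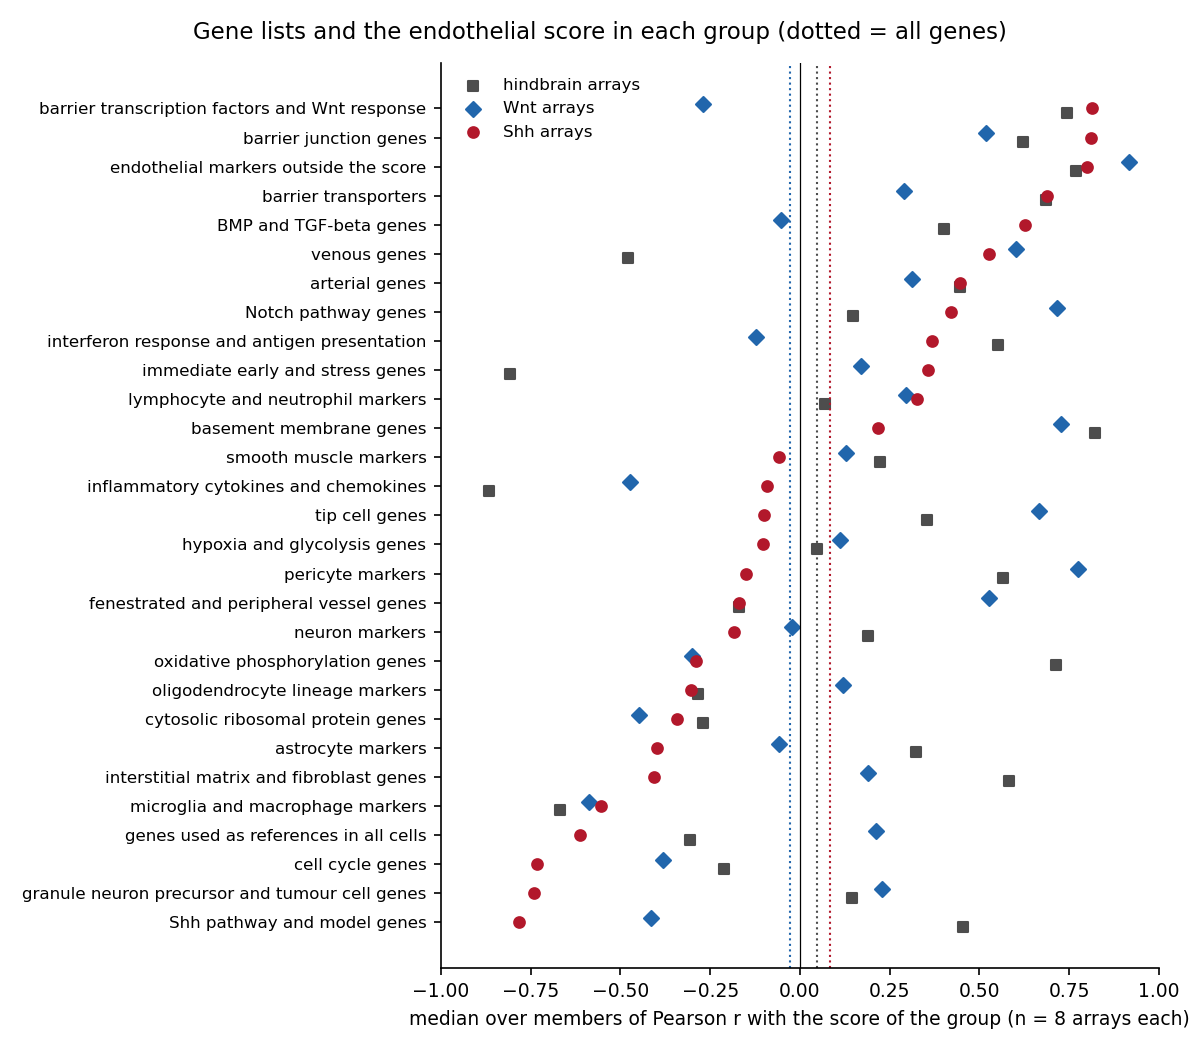
Median Pearson r between the members of each gene list and the endothelial score of the group, in 8 Shh, 8 Wnt and 8 hindbrain arrays (dotted lines = median over all genes). Endothelial markers lie to the right in all 3 groups, whereas Shh pathway and tumour cell genes lie far to the left in the Shh arrays, at -0.78 and -0.74. The Shh pathway genes lie to the left in the Wnt arrays too, at -0.41.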

How the data were processed

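The authors deposited 1 table of log2-scale values, 41345 probe sets by 24 Affymetrix arrays. The submitters' processing notes name Partek 6.6 without a role. The sources used here do not name the method of summary, the normalization or the log base, and log2 was read from the range of the values. Depth is not defined for arrays, and their number limits the precision. Values were used as deposited. Probe sets with 1 gene symbol in the platform annotation (23521; 1814 had several and 16010 none, controls included) were kept, 1 per gene (the probe set with the highest mean), giving 22180 genes; 23328 of the symbols' probe sets matched a gene ID of the RefSeq table (GRCm38.p6).

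The score was entered as a covariate in limma 3.58.1 (R 4.3.3, lmFit and eBayes) over the 8 Shh arrays, 5 score genes left out, with Benjamini-Hochberg adjustment over 22175 genes. The same fit was made in each other group, and slopes were compared in 1 fit of 24 arrays. Exact permutation tests (scipy 1.17.1) were two-sided, for 90 named genes, and are descriptive, since nearly all of these were picked by values of the same arrays. Named were the score genes, the 10 properly named genes with the largest called slopes in each direction above the background bound, the 12 with the largest SD at r between -0.3 and 0.3, the 2 members of each list with the smallest p, Ptch1, Cdkn2c and Xist; other list members and called genes were added after their values were seen. On simulated data with known slopes, 10, 42, 44 and 49 of 50 genes were recovered at 0.25, 0.5, 0.75 and 1 log2 per SD, with 7 false calls. The simulated noise was drawn independently for each gene and the score was fixed. These counts therefore do not describe genes that vary together across arrays. Members and gene lists (32 lists, 519 of 567 genes measured) were chosen with earlier results of these data known. The labels do not say that replicate numbers pair arrays across groups. Same-numbered arrays correlated at -0.146 to 0.282 in their deviations from group means. Arrays with different numbers were not compared, so these values do not settle whether the numbers carry a pairing.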

Additional observations from a re-analysis of the deposited data

Results flagged for a closer look

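The sets of 8 Shh values looked at overlap, as Sox9 is also an astrocyte marker and Adm is in both the tip cell and hypoxia lists. In 7 of 128 sets the highest or lowest array stood apart by Dixon's criterion. Chance meets it in about 1 of 20 sets, so the 7 are near the chance rate and are given as a description. Replicate 3 accounted for 4 of them: Elane, a neutrophil protease, was 7.44 there (5.80 to 6.38 in the others), Snap25, a synaptic protein, 7.55 (8.89 to 10.09), Sox9, a glial transcription factor, 7.70 (8.93 to 9.95), and the mean of astrocyte markers 8.0 (8.64 to 9.20). Replicate 2 stood apart for the mean of tip cell genes at 10.68 (9.75 to 10.07) and of hypoxia and glycolysis genes at 9.46 (8.87 to 9.08). Replicate 5 stood apart for Folr1, a folate receptor of choroid plexus, at 7.30 (6.13 to 6.64).

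Slopes on the score, per log2 unit, differed between Shh and Wnt arrays by an adjusted p under 0.05 in limma for 21 of the named genes. Most named genes were chosen by their fit to the score in the same Shh arrays, so these differences are given as a description. Over all genes 169 slopes were higher in Shh than in Wnt arrays (0.762%) and 256 lower (1.15%). The difference, Shh minus Wnt, was positive for Unc13b (2.44), Ushbp1 (1.55), Rhobtb1 (2.09), Ephb4 (1.80), Agrn (1.48) and Jag2 (1.73). It was negative for the tumour cell and progenitor genes Olig2 (-7.45), Olig1 (-6.26), Atoh1 (-6.44) and Gli2 (-4.29). It was also negative for Amer2 (-6.73), Hectd2 (-5.24), Prmt8 (-6.18), Gng3 (-6.25), Syt13 (-5.20), Sstr2 (-5.03), Lrrn1 (-5.03), Stmn3 (-4.32), Plpp3 (-3.44), Kcne3 (-6.37) and Gapdh (-1.50). The slope of Kcne3 in Shh arrays, per SD of the score, was -0.69 with all arrays and -0.40 without replicate 2, where it was 9.20; the difference from Wnt arrays was not refitted without that array for single genes.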

How the results depend on the processing

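The counts of called genes moved widely and the direction of the slopes little, in genes that had been chosen by their slopes in the same arrays. The 34 rising and 67 falling genes kept their sign in every alternative but 1 (31 of the 34 lay above the background bound and entered that fit), and 0 of the 24 called named genes changed sign over 28 alternatives. Of the 66 named genes that were not called, 26 had slopes of both signs over the alternatives. The exception, chosen after seeing the data, gave each side of the gap in the score its own mean: 33 of 34 and 66 of 67 kept their sign, and 0 and 1 genes were called. With 1 Shh array left out, rising calls ran from 0 to 8 and falling calls from 0 to 56. Rising and falling calls were 0 and 0 after quantile normalization, 32 and 105 after a median shift, 136 and 166 for the genes above the background bound, 158 and 165 with a variance trend, and 12 and 40 with array weights. With the array median as a covariate they were 0 and 19. A score from other endothelial markers gave 448 and 718. Dropping 1 score gene gave 18 and 42 without Pecam1, 0 and 1 without Eng, 191 and 226 without Tie1, 0 and 3 without Kdr. Of the alternatives added after seeing the data, ranks of the score gave 0 and 1, Xist as a covariate 12 and 57, and both ERCC settings 0 and 0.

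Fitting all 24 arrays gave 495 rising and 535 falling genes without a replicate block and 0 and 9 with it. The 425 slope differences between Shh and Wnt arrays became 19 with the replicate block. The labels do not say that replicate numbers pair the arrays, and whether they do was not settled. Without Eng in the score the differences were 263, with a score from other markers 725, and 216 to 458 and 232 to 535 with 1 Shh or 1 Wnt array left out. In Wnt arrays 27 genes rose after a median shift. In hindbrain arrays 141 rose after quantile normalization, and 737 rose and 522 fell among genes above the bound. The causes were not tested. With 8 arrays and a score range of 1.30-fold, small slopes can be missed, and values near the ERCC controls carry little signal.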
